A study of Mus musculus with 8 samples.

Results

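Gm numbers are placeholder symbols given to predicted mouse genes that had no other name when they were annotated. Of the 53761 H3K9me3 peaks of colon crypts, 1113 (2.07%) were annotated to such a gene, chosen as every peak whose closest gene within 5 kb had a symbol of Gm followed by digits only. They carried 503 symbols and 504 gene identifiers. The choice used the gene symbol alone and no measured value.

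H3K9me3 was measured by ChIP-seq in whole crypt isolates from the colon of C57BL/6 mice. The KO group was Vil-Cre Smarcad1 fl/fl, in which Cre under the Villin promoter removes Smarcad1 exons needed for ATP binding in intestinal epithelium, and the WT group held wild type controls. There were 3 ChIP libraries and 1 input library (chromatin taken before the immunoprecipitation) per genotype. The labels do not tie libraries to single animals, so p-values measure the spread between these libraries. The crypt isolates were not sorted, so cells without Cre activity may be present, and peaks of a repressive mark cannot check cell type markers. Smarcad1 itself held 0 peaks, so the deletion cannot be checked in these values either.

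H3K9me3 is the histone modification of constitutive heterochromatin, where HP1 proteins bind it, and it covers satellite repeats, many endogenous retroviruses and the exons of zinc finger gene families that encode arrays of fingers. Smarcad1 is an ATP-dependent chromatin remodeller of the SNF2 family that binds KAP1, the corepressor that KRAB zinc finger proteins recruit together with the H3K9 methyltransferase SETDB1. Many Gm symbols stand for long noncoding RNAs, for processed pseudogenes (copies of spliced transcripts that were inserted back into the genome) and for members of tandemly expanded gene families, KRAB zinc finger genes among them.

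Gene identifiers were matched to GENCODE vM21, and 472 of the 504 were found. Long noncoding RNA genes held 548 peaks at 234 genes, protein coding models 384 peaks at 158 genes, and processed pseudogenes 114 peaks at 67 genes. The 32 genes without a match held 51 peaks. Of the matched genes, 91 carry another name in that annotation, with 219 peaks, and 14 of these are zinc finger genes with a Zfp number, 12 of them on chromosome 4. Gm13247 is one of these (Zfp981), and Gm13157 is another (Zfp984). Peaks overlapped the gene in 757 cases, lay upstream in 189 and downstream in 167.

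A small group of Gm peaks, many of them wide, held a repeated zinc finger unit. A C2H2 finger and the linker that joins it to the next are encoded by 84 bases, and the linker was searched as CANACNGGNGANAANCC on both strands. It occurred in 48 Gm peaks (4.31%) at 46 genes, with 369 matches in all, and 219 neighbouring matches lay exactly 84 bases apart. The units shown here come from 6 Gm peaks on 6 chromosomes, each the peak with the most neighbouring matches at that distance on its chromosome. They are written 5′ to 3′ on the strand that holds the linker, from one linker to the next, with the linker in capitals. Coordinates and sequence are from GRCm38.
Gm14412, chr2:177315645-177315728, minus strand: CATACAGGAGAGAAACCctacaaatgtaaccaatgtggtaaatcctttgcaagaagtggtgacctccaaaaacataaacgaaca
Gm17655, chr5:110047168-110047251, minus strand: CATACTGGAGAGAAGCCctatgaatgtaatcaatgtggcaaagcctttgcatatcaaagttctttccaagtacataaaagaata
Gm10033, chr8:69373151-69373234, minus strand: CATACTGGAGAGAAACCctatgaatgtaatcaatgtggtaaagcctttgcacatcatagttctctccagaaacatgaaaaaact
Gm10139, chr13:65511997-65512080, plus strand: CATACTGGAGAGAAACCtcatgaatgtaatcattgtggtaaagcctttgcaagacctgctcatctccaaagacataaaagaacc
Gm13157, chr4:147755532-147755615, minus strand: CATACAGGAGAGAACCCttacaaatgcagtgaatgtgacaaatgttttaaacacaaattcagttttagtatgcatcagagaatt
Gm4924, chr10:82377330-82377413, plus strand: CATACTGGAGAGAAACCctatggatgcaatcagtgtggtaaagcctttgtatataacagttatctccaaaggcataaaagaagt

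Over the 15 pairs of these units, 46 to 72 of the 84 bases were identical (54.8% to 85.7%). The lowest was between Gm10139 and Gm13157, and the highest between Gm17655 and Gm10033. The Gm13157 unit from chromosome 4 was the one most unlike the others, with at most 63.1% identity to any of them. Gm17655 held the most linkers of any Gm peak, 19 in a peak of 23100 bp, followed by Gm10033 with 16.

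A second group of Gm peaks lies over tandem repeats at the start of chromosome 9. Gm10722, Gm10720 and Gm17535 are short protein coding models there, and the sequence of their peaks repeated itself best at a distance of 234 bases, the unit length of the mouse major satellite of pericentromeric heterochromatin. The share of bases equal to the base 234 positions on was 68.8% over the Gm10722 peak, 67.6% over Gm10720 and 63.3% over Gm17535, compared to a median of 30.7% at the best distance from 20 to 400 bases over all 965 Gm peaks of at least 600 bp. The units from the centres of the Gm10720 and Gm17535 peaks, the pair most alike of the 3, are shown on the plus strand, with bases equal to those of the next unit in capitals.
Gm10720, chr9:3019426-3019659: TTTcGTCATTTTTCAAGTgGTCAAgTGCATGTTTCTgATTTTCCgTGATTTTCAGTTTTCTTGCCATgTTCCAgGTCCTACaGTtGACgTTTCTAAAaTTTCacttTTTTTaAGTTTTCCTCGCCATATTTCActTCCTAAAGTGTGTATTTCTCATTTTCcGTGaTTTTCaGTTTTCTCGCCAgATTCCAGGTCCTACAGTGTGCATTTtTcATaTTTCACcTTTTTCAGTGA
Gm17535, chr9:3037051-3037284: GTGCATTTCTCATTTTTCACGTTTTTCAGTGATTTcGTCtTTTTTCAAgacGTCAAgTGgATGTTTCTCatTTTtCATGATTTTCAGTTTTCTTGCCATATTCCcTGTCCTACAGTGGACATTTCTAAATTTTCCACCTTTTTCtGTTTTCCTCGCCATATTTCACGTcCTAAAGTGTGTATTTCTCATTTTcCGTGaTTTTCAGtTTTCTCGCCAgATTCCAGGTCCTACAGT

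In Gm10720, 208 of the 234 bases matched the next unit, and in Gm17535 it was 217. After the second unit was rotated to the best start, 211 of 234 bases (90.2%) were identical between these genes. The unit from the centre of the Gm10722 peak, which is not shown, was less regular: 114 of its 234 bases (48.7%) matched the next unit, and it was 62.8% identical to the Gm10720 unit and 65.0% to the Gm17535 unit at the best start.

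Gm peaks were unevenly spread over the chromosomes. Chromosome 4 held 283 of them (25.4%) at 77 genes, which was 8.61% of its 3286 peaks. Chromosome 2 followed with 130 Gm peaks (4.00% of its peaks), chromosome 8 with 85 (2.75%) and chromosome 13 with 73 (2.53%). By share, chromosome 11 came next after chromosomes 4 and 2, with 56 of 1457 peaks (3.84%). The lowest share among the autosomes was on chromosome 3, with 17 of 3344 (0.508%). Chromosome X had 6 Gm peaks of 474, and chromosome Y had 0 of 71. A count of 0 in 71 would allow a share of up to about 4.23% (3 in 71) if peaks were independent. No test was made of this spread, since neighbouring peaks of a gene are not independent of each other.

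**Figure D1:**
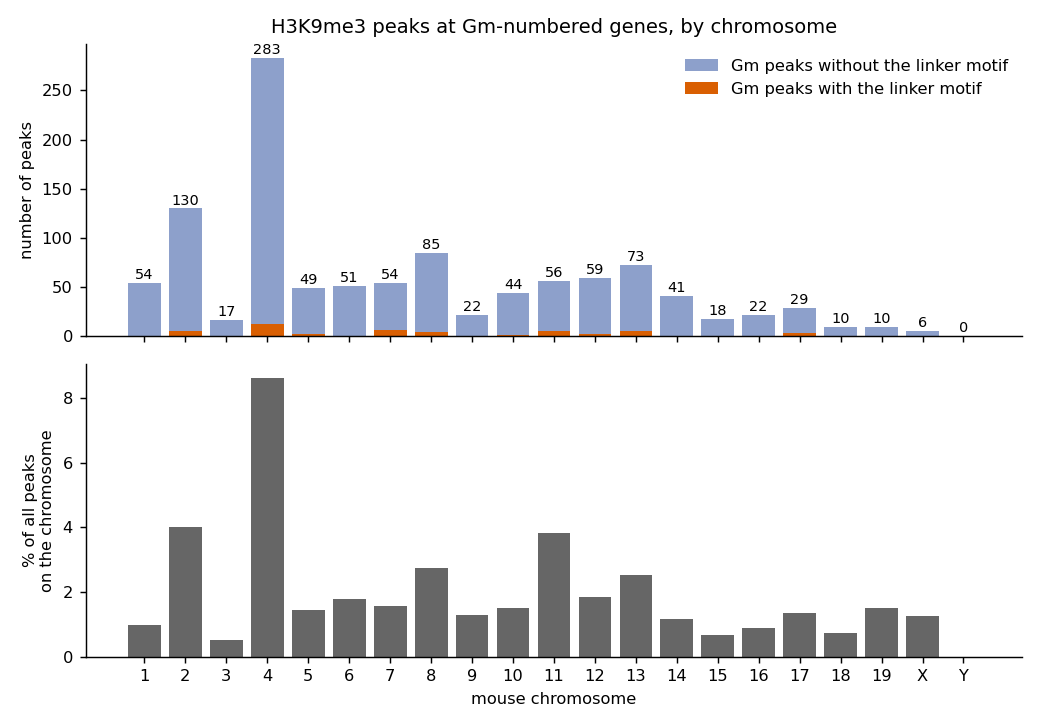
Number of Gm peaks on each mouse chromosome (top, peaks with the zinc finger linker motif in orange) and their share of all peaks on that chromosome in percent (bottom). Chromosome 4 stands highest in both panels, with 283 peaks and 8.61%, and chromosome Y has none.

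Peaks per gene were as uneven. A single peak was found at 308 genes and 2 to 4 at 154, while 42 genes with 5 or more held 400 of the peaks. When Gm peaks no more than 100 kb apart were chained, 46 clusters of at least 5 peaks came out on 12 chromosomes, with 455 Gm peaks (40.9%). In 33 of the clusters all Gm peaks belonged to a single gene, and 12 clusters held a peak with the linker motif. Chromosome 4 had 15 of the clusters and 203 of their peaks.

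The largest cluster lay over Gm11867, a noncoding processed transcript, at chr4:18430051-18850650. All 45 of its peaks overlapped the gene, 44 of them in introns, and together they covered 50.9 kb, or 10.5% of the gene. These were narrow, with a median of 900 bp and a maximum of 2700 bp, and none held a linker. Mean log2 reads over the 45 peaks were 3.86, 3.90 and 3.91 in WT replicates 1 to 3 and 4.02, 3.90 and 3.96 in KO replicates 1 to 3, so the genotypes overlapped. The KO minus WT difference was below 0 at 19 peaks, its median was 0.05 on the log2 scale, and no peak of the cluster passed the limma test, while 4 (8.89%, compared to 10.6% of all 53761 peaks) had an unadjusted p under 0.05.

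The next cluster was of another kind. At chr4:147302701-147807300, 35 peaks belonged to 7 genes, 6 of the peaks held the linker, and their widths ran up to 30900 bp. Its genes were Gm13151 (Zfp988), Gm13145 (Zfp978), Gm13152 (Zfp982), Gm16503, Gm13154 (Zfp985), Gm16211 and Gm13157 (Zfp984). The 35 peaks covered 162 kb of the 505 kb, and 5 were at least 10 kb wide. Their mean log2 reads were 5.11, 5.03 and 5.05 in WT replicates 1 to 3 and 5.17, 5.22 and 5.13 in KO replicates 1 to 3. The 3 KO means were above the 3 WT means by 0.02 log2 or more, yet 16 of the 35 differences were below 0. None passed the limma test, while 7 (20.0%, compared to 10.6% of all peaks) had an unadjusted p under 0.05. That share rises with width, to 29.6% among all peaks of 5 kb or more. A similar cluster with 23 peaks of Gm13227, Gm13225 (Zfp990), Gm13212 and Gm13242 (Zfp980) lay nearby, at chr4:145424101-145699500, also with 0 peaks called by limma and 4 (17.4%) with an unadjusted p under 0.05.

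**Figure D2:**
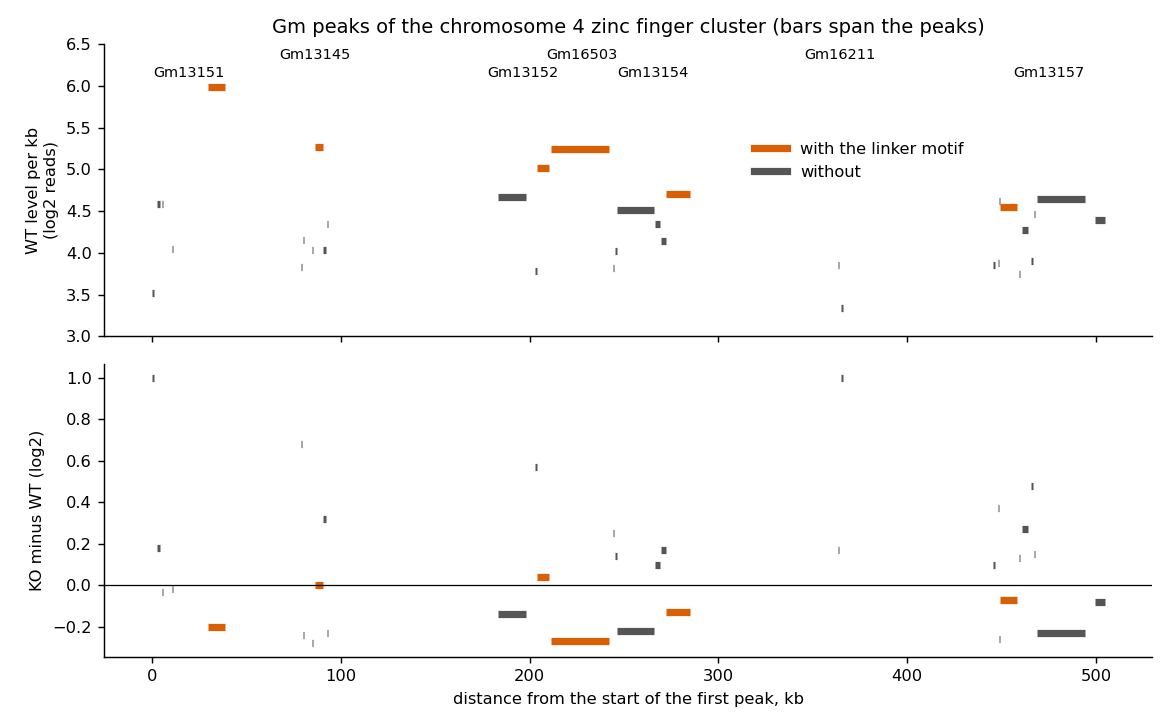
Gm peaks of the second largest cluster, against distance in kb from the start of its first peak. Bars span the peaks, at their WT level per kb in log2 reads (top) and at their KO minus WT difference on the log2 scale (bottom), in orange where the peak holds the linker motif; the 5 peaks of at least 10 kb lie below 0 in the lower panel, and the 2 highest differences, near 1, are at narrow peaks.

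The third cluster, with 25 peaks at chr12:20995651-21074250, was annotated to Gm20533, a noncoding transcript named Gm21989 in GENCODE vM21. All of its peaks also lie over Asap2, which encodes a GTPase-activating protein of ARF, and in vM21 19 of the 25 fall outside the Gm gene. Mean log2 reads were 3.77, 3.81 and 3.81 in WT replicates 1 to 3 and 3.82, 4.38 and 3.75 in KO replicates 1 to 3. KO replicate 2 stood apart: it had the highest value of the 6 libraries at 16 of the 25 peaks, and the other KO libraries lay at most 0.02 outside the WT range. No peak was called by limma, and 3 of the 25 had an unadjusted p under 0.05.

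Among the other genes with the most peaks, Gm20388 had 32 peaks, and its protein coding model spans 4435 kb of chromosome 8. All lay in its introns, and 7 of them also lay over Gse1, Zcchc14, Jph3, Def8 or Afg3l1. Gm12381, a lincRNA gene, had 21 peaks. Gm13212, Gm14266 and Gm11884 had 14 each. The median KO minus WT difference of these 5 genes ran from -0.13 in Gm12381 to 0.31 in Gm13212, where 3 of 14 differences were below 0. Only 1 peak of these 5 genes was called, in Gm20388.

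Gm peaks were about as wide as those at other genes. The median width was 1200 bp for the 1113 Gm peaks and for the 14567 peaks at other genes, and 1050 bp for the 38081 peaks without a gene within 5 kb. At least 10 kb was reached by 27 Gm peaks (2.43%), by 1.20% of peaks at other genes and by 0.221% of peaks without a gene. The widest were Gm10775 with 32550 bp, Gm16503 with 30900 bp, the 2 peaks of Gm13247 with 30150 and 28650 bp, and Gm20449 with 28200 bp. Of the 27, 16 held the linker, 18 were at protein coding models and 10 were on chromosome 4.

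Reads per peak grow with width, so levels are given per kb as log2 reads. The median WT level per kb was 4.05 at Gm peaks, 4.01 at other genes and 3.95 without a gene. Relative to the WT input, log2 ChIP minus log2 input reads of the same peak, the medians were 0.90, 0.80 and 0.78. The ChIP values are matched between libraries and the input is not scaled, so the zero of this measure is arbitrary and its differences between peaks are what can be read. The quartiles of the Gm peaks, 0.59 and 1.34, enclose all of these medians. The median soft-masked share, which is the share of bases in annotated repeats, was 39.9% at Gm peaks, 31.5% at other genes and 40.7% without a gene, and median GC content was 42.8%, 42.5% and 41.6%.

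Peaks with the linker had higher levels and were wider than other Gm peaks. Their median width was 5625 bp against 1050 bp in the 1065 without it, the WT level per kb was 4.37 against 4.04, and the WT level over input was 1.35 against 0.89. At Gm peaks of 5 kb or more, with or without the linker, these levels were 4.65 and 1.15. The part of width in the levels of the linker peaks was not tested. An exon of the Gm gene was touched by 36 of the 48, and 35 were at protein coding models. The linker was in 4.31% of Gm peaks, 1.50% of peaks at other genes and 0.376% of peaks without a gene, and in 0.763% of all peaks. Wide peaks hold more sequence, so the share was also taken in the central 1000 bases of peaks of at least that width, where it was 3.44%, 1.17% and 0.319%. Among peaks of 5 kb or more, 26 of 57 Gm peaks (45.6%) held it, compared to 202 of all 963 (21.0%). Peaks whose gene has a Zfp number in the deposited table held it in 155 of 449 cases (34.5%), and these shares were not tested against each other.

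The highest WT level over input, among the 583 Gm peaks with at least 10 WT input reads, was found in Gm15446, a protein coding model on chromosome 5. Its peaks at chr5:109936801-109939650 and chr5:109939951-109948200 stood at 2.33 and 2.32, with 12 and 36 WT input reads and 22 and 33 KO input reads. The second of these held 12 linkers, and its log2 reads were 7.30, 7.59 and 7.58 in WT replicates 1 to 3 and 7.58, 7.59 and 7.45 in KO replicates 1 to 3, which overlap. Next were an intronic peak of Gm20498 (2.27), a protein coding model that also covers Cox16, a cytochrome c oxidase assembly factor, and Gm6712 (2.24), a lincRNA gene whose peak held 10 linkers. Gm5077 came after these with 2.22, on 14 WT input reads, and is named C1s2, a complement C1s protease gene, in vM21. The WT input is a single library, and a low count in it raises the level over input, so this ranking is uncertain where input reads are few.

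Input reads at Gm peaks were mostly like those elsewhere, with a small group far above. The median was 9.05 WT input reads per kb, compared to 9.33 at other genes and 9.09 without a gene, and 8.39 in the KO input. Gm peaks held 3.26% of the WT and 3.30% of the KO input reads over all peaks, and 2.65% of the width. At least 40 WT input reads per kb were found at 5 Gm peaks and at 31 of all peaks, and these 5 carried 15.4% of all WT input reads at Gm peaks. Gm10801, a protein coding model at chr2:98661751-98665650, had 1514 WT and 1541 KO input reads (388 and 395 per kb). The satellite peaks followed, with 999 and 961 reads at Gm10722 (119 and 114 per kb), 778 and 764 at Gm10720, and 322 and 313 at Gm17535, while Gm15564, an antisense gene over Kpna1, had 59 and 40. Gm10801 also had the highest WT ChIP level per kb of the 5, 9.38 on the log2 scale. Over input, their levels ran from 0.24 at Gm15564 to 1.00 at Gm17535, beside the Gm quartiles of 0.59 and 1.34. Each input is a single library, so these counts have no replicate error.

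**Figure D3:**
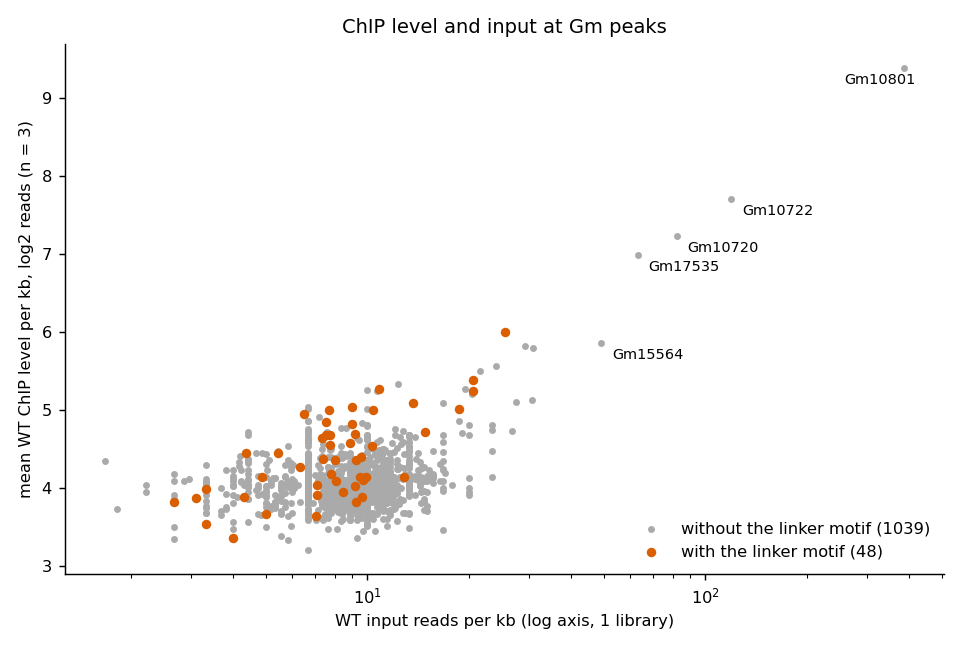
Mean WT ChIP level per kb (log2 reads, n = 3) against WT input reads per kb (log axis, 1 library) at the Gm peaks with more than 1 WT input read; peaks with the linker motif are in orange. Gm10801, Gm10722, Gm10720, Gm17535 and Gm15564 lie at the right, from 49.2 to 388 input reads per kb, and 4 of them also have the highest ChIP levels, 6.98 to 9.38.

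KO and WT were compared at all 53761 peaks with limma, and a peak was called at a Benjamini-Hochberg adjusted p under 0.05. At 16 of the 1113 Gm peaks (1.44%) H3K9me3 fell in KO, and at 3 (0.270%) it rose. Over all peaks, 0.863% were called lower and 0.796% higher, so the Gm share lay above this background for decreases and below it for increases, a difference that was not tested. At peaks of other genes, 1.41% were lower and 2.66% higher. Called Gm peaks belonged to 17 genes, 10 of the peaks at long noncoding RNA genes, 5 at protein coding models, 1 at a processed pseudogene and 3 at genes without a match. No peak with the linker motif was among them. At an unadjusted p under 0.05, 88 Gm peaks were lower (7.91%, compared to 6.06% of all peaks) and 46 higher (4.13%, compared to 4.52%). The either-direction share over all peaks was 10.6%. The median KO minus WT difference was -0.03 over Gm peaks, 0.00 over all peaks and -0.02 at other genes, and 47.1% of Gm peaks had a difference above 0. The 3 KO values lay below the 3 WT values at 125 Gm peaks (11.2%, compared to 8.42% of all peaks) and above them at 73 (6.56%, compared to 7.20%).

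The calls were not stable to the variance model or to single libraries. When limma's prior was held constant over levels, 1 Gm peak was lower and 0 were higher. Without WT replicate 1, 7 were lower and 3 higher. Without WT replicate 2, 0 were higher and 11 lower, and without KO replicate 2, 1 was higher and 12 lower. Of the 19 calls, 7 held in each of the 6 fits that left out 1 library. The KO input had fewer reads than the WT input at 10 of the 16 peaks that fell. Its reads summed over all peaks were also fewer, with a log2 ratio to the WT input of -0.08. The share of all peaks with fewer KO input reads was not counted, so the 10 of 16 cannot be read against it. When the input was subtracted, 18 of the 19 differences kept their sign, and 8 were still called in the same direction. These 8 were at Gm9951, Gm20499, Gm15728, Gm12355, Gm5444, Gm20498, the Gm16365 peak from 39591901 and the wide Gm9581 peak. Each genotype has a single input, so its noise then entered the difference but not the spread between libraries. That fit called 15872 of all peaks, compared to 892 in the main fit. Calls kept or lost after input subtraction therefore cannot decide whether a change holds.

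**Figure D4:**
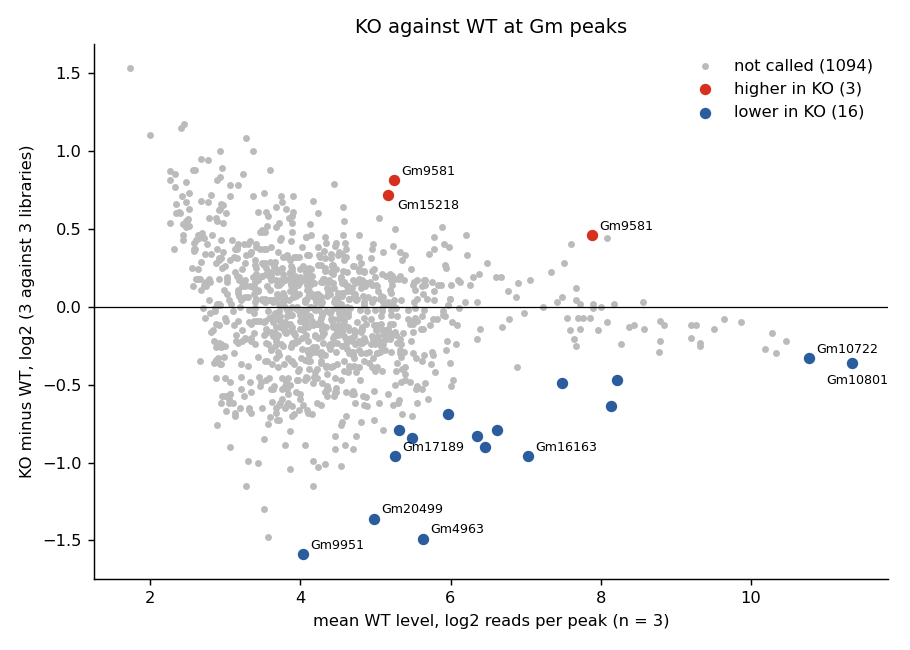
KO minus WT difference (log2, 3 against 3 libraries) against the mean WT level (log2 reads per peak, n = 3) of the 1113 Gm peaks. The 16 peaks called lower are in blue and the 3 called higher in red, and the 1094 others in grey; the spread of the differences is widest at peaks of low level.

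The largest decrease was next to Gm9951, a lincRNA gene. Its peak of 600 bp at chr8:34057801-34058400 lay 755 bp upstream of the gene and had log2 reads of 3.88, 4.03 and 4.19 in WT replicates 1 to 3 and 2.32, 2.59 and 2.42 in KO replicates 1 to 3. All KO values were below all WT values, with means of 4.03 ± 0.15 and 2.44 ± 0.14 (SD, n = 3). The difference was -1.59 (SE 0.39, adjusted p = 0.0163 from limma), but the inputs held only 5 WT and 4 KO reads there, and the call was lost in each of the 3 fits without a WT library.

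The second was near Gm4963, a processed pseudogene. The peak of 2250 bp at chr5:137995501-137997750 was 2077 bp downstream and had log2 reads of 5.88, 5.69 and 5.32 in WT replicates 1 to 3 and 4.34, 3.73 and 4.35 in KO replicates 1 to 3. The groups did not overlap, and the difference was -1.49 (SE 0.23, adjusted p = 1.20e-05 from limma). The call held without each library in turn, with differences from -1.65 to -1.29. The inputs moved the same way, with 27 WT and 13 KO reads, and after subtraction of the input the difference was -0.44 and was not called (adjusted p = 0.240 from limma). The part of the input in this decrease was not tested further.

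Gm20499 was next, with a peak of 1500 bp at chr5:114820801-114822300 that also lies over 1500011B03Rik, a coding gene known by its clone name. Log2 reads were 5.17, 4.70 and 5.08 in WT replicates 1 to 3 and 4.06, 3.49 and 3.31 in KO replicates 1 to 3. The lowest WT value was 0.64 log2 above the highest KO value, and the difference was -1.36 (SE 0.27, adjusted p = 0.00119 from limma). The call held without each library, and inputs were alike, with 11 WT and 9 KO reads.

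The central 300 bases of these 3 peaks are shown on the plus strand, because they are the called decreases of at least 1 log2, with bases outside annotated repeats in capitals. They show how much of each is repeat: 84 of the 300 bases in Gm9951, 178 in Gm4963 and 199 in Gm20499.
Gm9951, chr8:34057951-34058250: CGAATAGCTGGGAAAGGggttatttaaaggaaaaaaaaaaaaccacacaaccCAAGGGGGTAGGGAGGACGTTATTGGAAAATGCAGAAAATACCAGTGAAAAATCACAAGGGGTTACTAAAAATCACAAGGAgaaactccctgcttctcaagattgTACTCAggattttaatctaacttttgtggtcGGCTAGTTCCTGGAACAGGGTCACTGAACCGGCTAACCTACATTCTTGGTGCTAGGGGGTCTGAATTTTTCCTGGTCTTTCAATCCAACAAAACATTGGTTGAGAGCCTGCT
Gm4963, chr5:137996476-137996775: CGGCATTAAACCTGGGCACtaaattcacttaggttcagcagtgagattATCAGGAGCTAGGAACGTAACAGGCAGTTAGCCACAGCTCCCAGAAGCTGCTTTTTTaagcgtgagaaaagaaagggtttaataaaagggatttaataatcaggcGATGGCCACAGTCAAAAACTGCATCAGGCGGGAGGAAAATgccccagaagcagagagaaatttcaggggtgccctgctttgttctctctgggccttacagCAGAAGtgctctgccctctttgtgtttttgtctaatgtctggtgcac
Gm20499, chr5:114821401-114821700: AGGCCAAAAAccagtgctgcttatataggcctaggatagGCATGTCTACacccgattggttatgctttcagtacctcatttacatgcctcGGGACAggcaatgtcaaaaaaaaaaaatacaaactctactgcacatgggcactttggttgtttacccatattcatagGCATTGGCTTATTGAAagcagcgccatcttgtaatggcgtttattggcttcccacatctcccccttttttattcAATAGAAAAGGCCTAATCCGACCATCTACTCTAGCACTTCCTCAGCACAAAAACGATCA

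Several noncoding genes held wider peaks that fell by less than 1 log2. At Gm16163, a noncoding transcript that overlaps 2810004N23Rik, an intronic peak at chr8:124852351-124858200 had log2 reads of 6.94, 7.04 and 7.12 in WT replicates 1 to 3 and 6.20, 6.18 and 5.86 in KO replicates 1 to 3. The difference was -0.96 (SE 0.15, adjusted p = 9.27e-06 from limma) and was called without each library, beside 61 WT and 42 KO input reads. With the input subtracted it was -0.42 and the call was lost (adjusted p = 0.178 from limma). At Gm15728, a lincRNA gene with a peak over an exon at chr5:117391051-117394650, they were 6.42, 6.48 and 6.48 in WT and 5.71, 5.19 and 5.78 in KO. Here the input went the other way, with 34 WT and 41 KO reads, and the difference of -0.90 (SE 0.17, adjusted p = 4.03e-04 from limma) was also called without each library.

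Gm15834, a lincRNA gene with the widest of the peaks that fell, showed the smallest spread. Its peak of 11100 bp at chr1:58505551-58516650 had log2 reads of 8.16, 8.13 and 8.12 in WT replicates 1 to 3 and 7.45, 7.44 and 7.59 in KO replicates 1 to 3. The difference was -0.64 (SE 0.11, adjusted p = 1.22e-04 from limma), the inputs held 103 and 95 reads, and the call held without each library but not after input subtraction (-0.52, adjusted p = 0.0886 from limma). At Gm5444, another lincRNA gene, an intronic peak at chr13:4797601-4801950 had 6.56, 6.76 and 6.52 in WT and 5.71, 6.02 and 5.75 in KO, a difference of -0.79 (SE 0.16, adjusted p = 0.00110 from limma) that was also called without each library, beside 34 WT and 39 KO input reads.

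Gm16365, an antisense gene on chromosome 10, had 2 called peaks in its introns. At chr10:39591901-39594900, log2 reads were 6.53, 6.41 and 6.13 in WT replicates 1 to 3 and 5.49, 5.39 and 5.69 in KO replicates 1 to 3, and the difference of -0.83 (SE 0.17, adjusted p = 0.00138 from limma) held without each library. The other, at chr10:39606601-39610350, had 6.05, 5.97 and 5.87 in WT and 5.53, 5.42 and 4.87 in KO. Its difference of -0.69 (SE 0.19, adjusted p = 0.0368 from limma) was lost in 4 of the 6 fits that left out 1 library. The inputs held 35 WT and 19 KO reads there, and the direction turned when they were subtracted, to 0.19.

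The calls at Gm17189, Gm14230 and Gm12355 were less secure. The peak upstream of Gm17189, an antisense gene, had log2 reads of 5.26, 5.15 and 5.38 in WT replicates 1 to 3 and 3.95, 4.54 and 4.42 in KO replicates 1 to 3, with a difference of -0.96 (SE 0.23, adjusted p = 0.0117 from limma). It was lost in 3 fits that left out a library, and also with the input subtracted (-0.58, adjusted p = 0.0996 from limma). The one upstream of Gm14230, a lincRNA gene, had 5.54, 5.93 and 5.01 in WT and 4.51, 5.08 and 4.35 in KO, which overlap, and was lost in 4 and with the input subtracted (-0.64, adjusted p = 0.135 from limma). The peak over Gm12355, a protein coding model, had 5.17, 5.41 and 5.35 in WT and 4.34, 4.60 and 4.61 in KO. Its difference of -0.79 (SE 0.22, adjusted p = 0.0420 from limma) was lost in all 6. With the input subtracted it was -1.06 and was called (adjusted p = 0.00809 from limma), in a fit whose spread leaves out the noise of the inputs.

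The decreases in Gm20498 and Gm20388 were smaller. In Gm20498, the peak at chr12:81447901-81454800 had log2 reads of 7.45, 7.36 and 7.64 in WT replicates 1 to 3 and 7.22, 6.82 and 6.94 in KO replicates 1 to 3. In Gm20388, the peak over Def8 (chr8:123426151-123434100) had 8.20, 8.30 and 8.17 in WT and 7.59, 7.62 and 8.07 in KO, where KO replicate 3 lay near the WT values. The inputs held 52 WT and 63 KO reads at the first and 85 and 64 at the second. Both calls were lost in 4 of the fits that left out 1 library, with differences of -0.49 and -0.47 (adjusted p = 0.0304 and 0.0173 from limma). After subtraction of the input the difference was -0.77 in Gm20498 and -0.06 in Gm20388 (adjusted p = 0.0335 and 0.881 from limma). Gm20498 passed the threshold there, but the noise of the single inputs is not in the spread of that fit. Its call is therefore not backed by this.

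The called peaks with the most input reads, Gm10801 and Gm10722, had the smallest decreases of the 16. Of the Gm10801 peak 40.6% was soft-masked, near the Gm median, and of the Gm10722 peak 96.4%. Gm10801 had log2 reads of 11.55, 11.28 and 11.21 in WT replicates 1 to 3 and 11.02, 10.77 and 11.17 in KO replicates 1 to 3, so its groups were 0.04 apart. Gm10722 had 11.02, 10.65 and 10.65 in WT and 10.65, 10.21 and 10.45 in KO, with a shared value of 10.65. Their differences were -0.36 and -0.33 (SE 0.09 for both, adjusted p = 0.0104 and 0.0431 from limma), and each was lost in 2 fits, one of them without WT replicate 1, the highest library at both. Neither was called after subtraction of the input, with differences of -0.38 and -0.28 (adjusted p = 0.233 and 0.398 from limma). The neighbouring satellite peaks of Gm10720 and Gm17535 had differences of -0.22 and -0.25 and did not pass the test (adjusted p = 0.299 and 0.328 from limma).

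The 3 increases came from 2 genes. Gm9581, which had no match in vM21, held 2 neighbouring peaks that also lie over Crybg3, a gene of the beta/gamma crystallin domain family. At chr16:59564851-59580150, 15300 bp wide, log2 reads were 8.00, 7.80 and 7.87 in WT replicates 1 to 3 and 8.38, 8.46 and 8.21 in KO replicates 1 to 3, a difference of 0.46 (SE 0.11, adjusted p = 0.00940 from limma). At chr16:59581501-59584350 they were 5.42, 4.79 and 5.54 in WT and 6.11, 6.25 and 5.83 in KO, a difference of 0.81 (SE 0.19, adjusted p = 0.00907 from limma). The inputs held 136 WT and 112 KO reads at the wide peak and 26 and 35 at the other. All KO values were above all WT values at both, and the calls were lost in 3 and 2 of the fits that left out 1 library, in each case also without WT replicate 2. With the input subtracted the difference was 0.74 at the wide peak and 0.38 at the other (adjusted p = 0.0294 and 0.303 from limma). The wide peak passed the threshold there, but the noise of the single inputs is not in the spread of that fit. Its call is therefore not backed by this. The third was an intronic peak of Gm15218, a lincRNA gene, at chr14:45779251-45782100, with 5.54, 5.04 and 4.92 in WT and 5.64, 6.19 and 5.83 in KO. Its groups were 0.10 apart, and its difference of 0.72 (SE 0.19, adjusted p = 0.0366 from limma) was lost in 4 fits and with the input subtracted (0.50, adjusted p = 0.174 from limma).

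**Figure D5:**
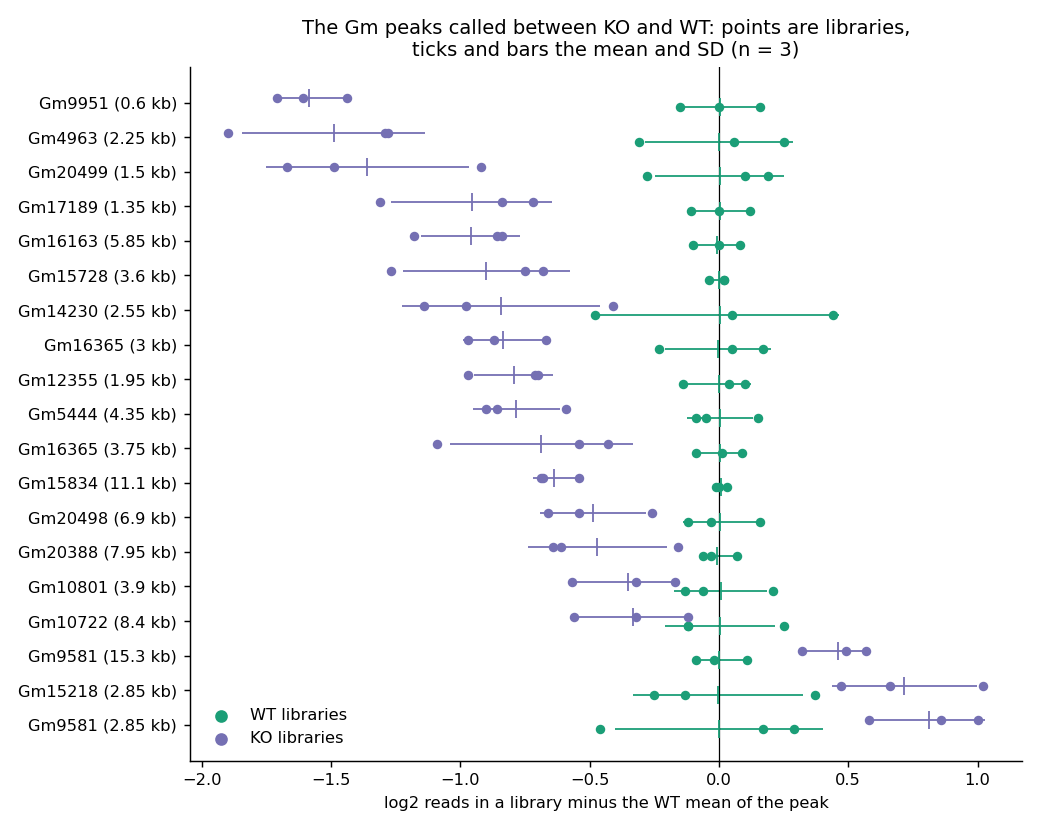
The 19 called Gm peaks, with their width in kb: each point is 1 library's log2 reads minus the mean of the 3 WT libraries of that peak (green WT, purple KO), and ticks with bars give the mean and SD (n = 3). Gm9951, Gm4963 and Gm20499 show the largest gaps between groups, and at Gm14230 and Gm10722 the groups overlap or touch.

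Precision rose with width. The median 95% interval of a difference reached 0.77 log2 to either side in the 445 Gm peaks under 1 kb, 0.53 in the 451 from 1 to under 2 kb, 0.38 in the 160 from 2 to under 5 kb and 0.23 in the 57 of 5 kb or more. Of the Gm peaks under 1 kb, 1 was called, lower in KO (0.225%), while among all peaks of that width 0.189% were lower and 0.207% higher. Of the Gm peaks of 5 kb or more, 5 (8.77%) were lower and 1 higher, while among all peaks of that width 4.26% were lower and 9.14% higher. In the 27 Gm peaks of at least 10 kb, the difference was below 0 in 21, with a median of -0.12, and 2 were called, Gm15834 and Gm9581. Wide peaks in general leaned the same way. At 5 kb or more, 33.3% of Gm peaks (median -0.12) and 40.9% of all peaks (median -0.05) had a difference above 0. At a WT level of at least 5 log2 it was 37.2% of Gm peaks and 38.6% of all peaks. The WT values that chose these peaks also enter their difference, which by itself pulls it below 0. The shares by level therefore cannot show a lean.

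None of the 48 Gm peaks with the linker was called, where 0.863% of all peaks were called lower and 0.796% higher. A count of 0 in 48 is near those shares, but they come mostly from narrower peaks. Among all peaks of 5 kb or more, 9.14% were called higher and 4.26% lower. The count of 0 was not tested against either background. Over the 48 Gm peaks with the linker, mean log2 reads were 6.92, 6.93 and 6.97 in WT replicates 1 to 3 and 7.04, 7.15 and 6.99 in KO replicates 1 to 3. All 3 KO means were above the WT means, by 0.02 or more. The median difference was 0.04, 30 of 48 were above 0, and 0 were called by limma in either direction. An unadjusted p under 0.05 was found at 11 (22.9%, compared to 10.6% of all peaks). These peaks are wide, with a median of 5625 bp, and that share rises with width. Over all peaks it was 18.7% from 2 to under 5 kb and 29.6% at 5 kb or more. At peaks of other genes with the linker it was 30.1%. Of the 219 peaks at other genes with the linker, 12 were called higher (5.48%) and 6 lower (2.74%), with a median difference of 0.06. The widest of the Gm group, Gm10775, had 9.88, 9.84 and 9.88 in WT and 9.85, 9.75 and 9.72 in KO, a difference of -0.10 (SE 0.08, adjusted p = 0.763 from limma). The wide peak of Gm13247 without a linker came nearer the threshold, with 10.34 in each WT library and 10.00, 9.84 and 10.28 in KO, a difference of -0.30 (SE 0.09, adjusted p = 0.0722 from limma).

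Among gene types the median difference was -0.05 in long noncoding RNA genes, with 9 peaks lower (1.64%) and 1 higher (0.182%) of 548. It was -0.03 in protein coding models, with 5 lower (1.30%) and 0 higher of 384. In processed pseudogenes it was -0.01, with 1 lower (0.877%) of 114. Over all peaks, 0.863% were lower and 0.796% higher. On the X chromosome, 0 of 6 peaks were called by limma, 0 had an unadjusted p under 0.05, and the median difference was 0.21. Peaks over another named coding gene numbered 88, of which 4 were lower (4.55%) and 2 higher (2.27%). None of these shares was tested against that of all peaks. A decrease of at least 1 log2 at 8 Gm peaks and an increase of that size at 6 did not pass the test. The largest of these were at Gm13242 (Zfp980) with 1.53 and at Gm15614 with -1.48, in peaks of 300 and 450 bp with 5 and 3 WT input reads.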

How the data were processed

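The authors trimmed reads with Trim Galore (0.6.1 per the labels), mapped them to GRCm38 with Bowtie2 2.3.2, discarded duplicates, and ran the MACS caller of SeqMonk on the pooled ChIP libraries against the inputs, adding the closest gene. Labels give short single-end reads and the methods longer paired ones. The deposited ChIP values are log2 reads per peak that the authors matched to one distribution over the 6 libraries, so a change of like size at most peaks would not be seen. The deposited input values are log2 of whole reads without scaling, where 0 or 1 read is listed as 0 and counted here as 0. A second deposited table holds the authors' own edgeR comparison and was not used. The median Gm peak stood at the 15th to 21st lowest distinct value of its library, where a step is 1 read if each low count occurs. Input reads over all peaks numbered 732467 in WT and 690561 in KO.

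Genotypes came from the sample titles. KO and WT were compared with limma 3.58.1 in R 4.3.3, with a mean-dependent variance prior and genotype alone in the model, two-sided, over all 53761 peaks. In simulated libraries with 200 changed peaks it recovered 30 of 105 changes of 1 log2 and 82 of 95 of 2 log2, with 2 false calls. Sequence, soft-masked repeats and GC came from GRCm38.p6 (RefSeq) and gene models from GENCODE vM21, with Python 3.11.15 and pysam 0.24.0. Samples with the same replicate number did not deviate together. Named peaks were Gm20499, the 10 largest changes in each direction (the other calls were added after their values were seen), the 5 genes with the most peaks and ties, the 5 widest peaks, the 5 highest over input and in input reads per kb, and the 3 largest clusters. The members, lists and alternatives were chosen with earlier results of these data known. Alternatives were other variance priors, filters, scalings, thresholds, distances, and leaving out each library. Grouping by zinc fingers in the protein was not run, because no protein sequences were used here.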

Additional observations from a re-analysis of the deposited data

How the results depend on the processing

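Of all 53761 peaks, 892 were called by limma. The counts for all peaks, Gm peaks higher and Gm peaks lower were 127, 0 and 1 with a variance prior without a trend, 15872, 173 and 160 after subtraction of the log2 input (a genotype has a single input, whose noise then enters the difference but not the spread), 554, 2 and 7 at an adjusted p under 0.01, and 511, 0 and 3 with a difference of at least 1 log2. Only peaks with a mean of at least 4 log2 gave 6 Gm peaks higher, with fewer peaks tested. Leaving out 1 library gave 570 to 805 for all peaks, 0 to 3 Gm peaks higher and 7 to 16 lower. In alternatives chosen after seeing the data, 1 Gm peak was higher without the peaks over another coding gene, and 12 were lower; without those of at least 40 WT input reads per kb, 3 were higher and 14 lower. With the replicate number as a block, 872 peaks were called, 3 Gm peaks higher and 17 lower, and deviations of same-numbered samples correlated at -0.00126, 0.0191 and 0.0164, so the numbers do not pair the samples. The median difference was 0.05 instead of -0.03 after input subtraction, and the cause was not tested; the peak of Gm16365 from 39606601 then turned to 0.19. The median WT level per kb was 4.09 with 1 value a gene, and the median over input 0.78 with at least 10 WT input reads. The other alternatives kept widths, clusters (44 to 47), repeat and linker shares within 1.5 times or the interval of the main value.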

Other observations

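Gm peaks differed with their place in the gene model. Peaks over an exon of their Gm gene numbered 209, with a median width of 1800 bp, and 36 of them (17.2%) held the zinc finger linker. In the 508 peaks in introns it was 1 (0.197%), and in the 345 outside the gene model it was 6 (1.74%). Tandem sequence other than fingers and the major satellite was found at a few Gm peaks. The peak of 600 bp at Gm11033 on chromosome 8 repeated itself at 204 bases with 82.6% of bases equal, and a peak of Gm7120 on chromosome 13, with 239 WT input reads, did so at 31 bases with 61.6%. Of the 965 Gm peaks of at least 600 bp, 11 had 60% or more of their bases equal at the best distance. Gm14412 on chromosome 2 had the highest share among finger peaks, 76.8% at 84 bases, and 81.6% of it was soft-masked.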
